A study of Ovis aries with 9 samples.

Results

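Hepatocytes of ewes at gestation days 90 to 100 were compared with hepatocytes at days 100 to 120. The 2 groups hold 749 of the 3404 cells of the series, taken by the stage named in the cell columns of the count table: 396 cells at days 90 to 100 and 353 at days 100 to 120. Both samples are liver of female sheep (Ovis aries) labelled as hepatocytes, and they differ in the labels only by the range of gestational days. No treatment, genotype or breed is named. The series also holds a virgin sample, 4 other gestation samples and 2 samples from lactation, which serve here only to place the pair. Livers of slaughtered animals were kept cold, minced and digested with collagenase, and single cells were picked by hand and given a Smart-seq3xpress library each, a plate-based method that reads along the transcript. Each stage is 1 sample, and the labels name no separate animals. A difference between the stages can therefore not be told apart from a difference between animals, days of preparation or plates. No test between the stages is possible, and the values below describe these 2 samples.

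In later pregnancy the ewe's liver meets the growing demand of the fetus for glucose, which in ruminants is made largely from propionate, and it handles fatty acids released from maternal fat. Hepatocytes also carry out urea synthesis, amino acid breakdown, bile acid synthesis and the secretion of most plasma proteins. Enzymatic digestion of tissue is known to switch on immediate early genes, which encode short-lived transcription factors and signalling regulators of the FOS, JUN and KLF kinds, and heat shock genes, which encode chaperones that refold damaged proteins. These genes were therefore set apart from the metabolic genes.

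The sample at days 90 to 100 had 213670593 reads on named genes and the sample at days 100 to 120 had 173491742. The median cell carried 413452 and 469964 reads, and 5979 and 5171 genes with at least 1 read. After each cell was thinned to 184944 reads, which left out 53 and 22 shallower cells, the medians were 5626 and 4714 genes, so that fewer genes per cell were detected at days 100 to 120 at equal depth. The samples carried the markers of their label: the summed level of 13 hepatocyte markers was 198427 and 198505 CPM (read counts scaled to a total of 1000000, the total being adjusted by TMM over all 9 samples). The summed marker levels of 7 other cell types (bile duct, endothelium, stellate cells, macrophages, lymphocytes, neutrophils and red cells) stayed between 0.618 and 58.3 CPM in both samples. Macrophage markers summed to 58.3 and 34.4 CPM, and red cell markers to 0.618 and 15.1 CPM, with 83.3% of the latter in 1 cell. Lymphocyte markers summed to 34.6 and 34.1 CPM, but their members moved apart. JCHAIN, the joining chain of antibodies, had 26.3 and 4.44 CPM, with 48.7% of its reads at days 90 to 100 in 1 cell. The other 9 markers, mostly of T and NK cells, summed to 8.31 and 29.7 CPM. Of these 9, 8 were higher at days 100 to 120, as were 53.1% of all genes tested below. Among 749 cell columns 0 were identical. At these depths even low sums were counted closely: JUNB, one of the lower genes described, had an exact Poisson 95% interval of 5.0 to 5.64 CPM around 5.31 CPM at days 90 to 100. Such intervals, and the binomial ones below, cover counting error only, since reads copied by PCR are not independent molecules, and they say nothing of how 2 animals of 1 stage would differ.

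Across the 8280 genes with a mean of at least 5 CPM over the 9 samples, the 2 samples lay close together. The median log2 ratio of days 100 to 120 over days 90 to 100, with 0.5 CPM added to both, was 0.03, with quartiles of -0.25 and 0.30. At least 2-fold higher at days 100 to 120 were 249 genes (3.01%), and at least 2-fold lower were 271 (3.27%). The 4 other steps between neighbouring gestation samples gave 226 and 117, 206 and 166, 185 and 204, and 275 and 301 genes in order of day. Each step shares a sample with the next, and each compares 1 library with 1. Of the 67 immediate early and heat shock genes found, 46 passed the minimum level, to which the sample at days 100 to 120 contributes. A gene can thus pass through a high level in that sample. Of these 46 genes 23 were at least 2-fold higher and 0 lower, at a median log2 ratio of 0.99. Of 302 measured genes in 17 metabolic lists 6 were at least 2-fold higher and 6 lower (1.99% each way), at a median of -0.03.

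**Figure D1:**
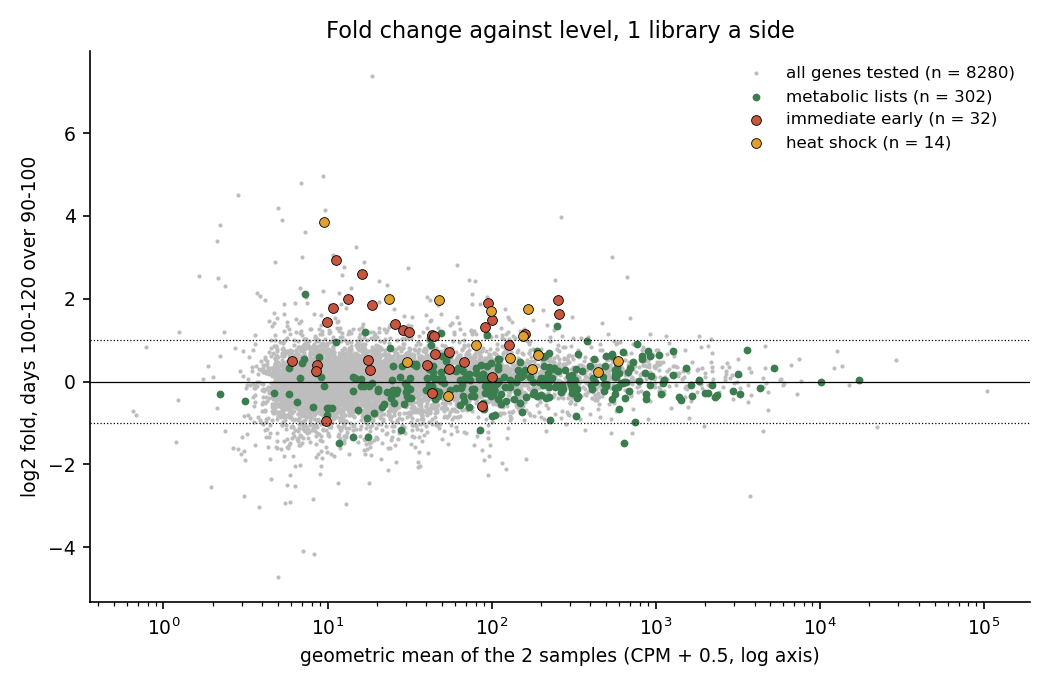
Each point is a gene, with the geometric mean of the 2 samples in CPM plus 0.5 on the horizontal log axis and the log2 fold of days 100 to 120 over days 90 to 100 on the vertical axis; dotted lines mark 2-fold. Of the 46 immediate early and heat shock genes that passed the minimum level 23 lie above the upper line and 0 below the lower one. The 302 metabolic genes gather around 0.

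Among immediate early genes the JUN members of the AP-1 transcription factors were higher. JUN stood at 6.15 CPM at days 90 to 100 and 25.9 CPM at days 100 to 120 (log2 ratio 1.99), JUNB at 5.31 and 19.3 CPM (1.77) and JUND at 145 and 447 CPM (1.62). ATF3, a stress-induced repressor of the same family, went from 3.6 to 30.8 CPM (2.94), and reads of it were found in 15.7% of thinned cells (exact 95% interval 12.1 to 20) at days 90 to 100 and 38.7% (33.4 to 44.2) at days 100 to 120. The brakes on growth and signalling that belong to the same response were higher too. BTG1, an antiproliferative factor, had 127 and 504 CPM (1.98), and BTG2 59.7 and 168 CPM (1.48). TRIB1, a pseudokinase that marks C/EBP factors for degradation, had 6.14 and 39.4 CPM (2.59). RHOB, a small GTPase, had 49.2 and 183 CPM (1.89), and MCL1, a survival factor of the BCL2 family, 106 and 235 CPM (1.14). Not all members moved this way: TNFAIP3, a brake on NF-kappa B signalling, stood at 13 and 6.55 CPM (-0.94), and DUSP6, a phosphatase of the ERK kinases, at 107 and 70.4 CPM (-0.60). FOS and EGR1, named after their values had been seen, were scarce in both samples, at 4.62 and 6.67 CPM and at 1.3 and 0.319 CPM. IER2, CEBPB and NFKBIZ differed by less than 2-fold (0.31, 0.47 and 0.39). Of 50 genes on the list 32 passed the minimum of 5 CPM. Of these 17 were at least 2-fold higher and 0 lower, against 3.01% and 3.27% of all genes, and their median was 1.12, or 0.48 without the minimum. The median taken over cells instead of the sum, log2(CPM + 1), gave a list median of 0.13. In the sample at days 90 to 100, 1 cell held 27.8% of the ATF3 reads and 1 cell 30.8% of the JUNB reads. For 24 of the 32, days 100 to 120 lay above all 4 other gestation samples, which 25.1% of all genes do.

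Among chaperones HSPA6, HSPA1A, HSPH1 and DNAJB1, of the HSP70, HSP110 and HSP40 families, had high ratios. HSPA6 stood at 1.99 CPM at days 90 to 100 and 35.4 CPM at days 100 to 120, HSPA1A at 90.3 and 306 CPM (1.76), HSPH1 at 23.9 and 94.5 CPM (1.96) and DNAJB1 at 54.3 and 177 CPM (1.70). HSPA1A overlaps HSPA1L in the RefSeq annotation and has near-identical relatives, so reads may be shared among them. BAG3, a partner of HSP70 in selective autophagy, had 105 and 226 CPM (1.09). Other members differed by less than 2-fold: HSP90AA1 had 493 and 693 CPM (0.49), HSP90AB1 157 and 195 CPM (0.31), the small chaperone HSPB1 408 and 479.9 CPM (0.24) and the mitochondrial HSPD1 153 and 237 CPM (0.63). Of 18 genes on the list 14 were measured. Of these 6 were at least 2-fold higher and 0 lower, against 3.01% and 3.27% of all genes. A ratio above 0 was found for 13 (53.1% of all genes), and the median was 0.76. CHORDC1, an HSP90 cochaperone, was the member with a ratio below 0 (-0.36).

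The difference was largest in the later-numbered cells of days 100 to 120. The column names number the cells of each stage, and the labels do not say what the number stands for. With each sample split into 10 equal ranges of this number, immediate early genes at days 100 to 120 summed to between 1652 and 1849 CPM in ranges 1 to 5 (cells 1 to 177) and to between 3710 and 4637 CPM in ranges 6 to 9 (cells 178 to 318), with 2484 CPM in range 10. Heat shock genes summed to between 1445 and 1732 CPM in ranges 1 to 5 and to between 3728 and 5329 CPM in ranges 6 to 9, with 2808 CPM in range 10. At days 90 to 100 the 10 ranges went from 1164 to 1549 CPM for immediate early genes and from 1433 to 2144 CPM for heat shock genes. In the 4 other gestation samples the highest ranges reached 2524 and 2034 CPM. The split into ranges of the cell number was chosen after the data had been seen.

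**Figure D2:**
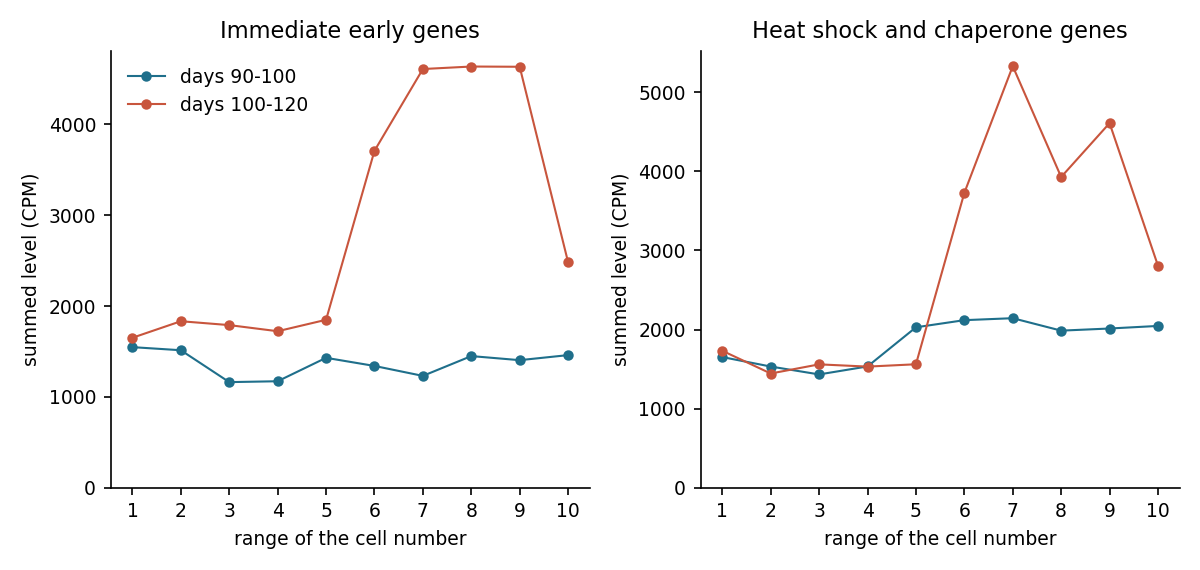
Summed level in CPM of immediate early genes (left) and of heat shock genes (right) in successive ranges of the cell number; each point is the sum over 35 to 40 cells of 1 sample. Cells 1 to 177 at days 100 to 120 lie at 1652 to 1849 CPM for immediate early genes, and ranges 6 to 9 at 3710 to 4637 CPM.

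Each sample was therefore also split into low-numbered cells (1 to 198 at days 90 to 100 and 1 to 177 at days 100 to 120) and high-numbered cells (199 to 396 and 178 to 353). Against the low- and the high-numbered cells of days 90 to 100, the low-numbered cells of days 100 to 120 had a median log2 ratio of 0.27 and 0.41 for immediate early genes and of -0.07 and -0.50 for heat shock genes. For the high-numbered cells of days 100 to 120 these values were 1.23 and 1.17, and 1.35 and 0.94. Values in the 4 sets of cells are given below as low- and high-numbered cells of days 90 to 100, then low- and high-numbered cells of days 100 to 120. JUND stood at 154 and 126 CPM at days 90 to 100, and at 126 and 763 CPM at days 100 to 120. For HSPA1A the same 4 values were 68.6, 138, 66 and 543 CPM. For both genes the low-numbered cells of days 100 to 120 lay close to or below both sets of days 90 to 100. JUNB had 5.8, 4.22, 1.3 and 37.1 CPM, only the last of the 4 being high. DUSP1, a phosphatase of stress kinases that is induced both by stress and by glucocorticoids, had the opposite order, with 29.8, 27.3, 99.5 and 28.7 CPM. FOSL2, another AP-1 member, was likewise highest in the low-numbered cells of days 100 to 120, at 14.4, 26.9, 58.2 and 30.4 CPM.

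Markers of some other cell types were also higher in the high-numbered cells of days 100 to 120, at much lower levels than the stress genes. Immediate early genes summed to 1321 and 1364 CPM in the low- and high-numbered cells of days 90 to 100 and to 1774 and 4003 CPM in those of days 100 to 120, and heat shock genes to 1603, 2073, 1567 and 4102 CPM. In the same 4 sets the 10 lymphocyte markers summed to 11.9, 84.8, 10.0 and 57.9 CPM, and without JCHAIN, which stood at 72.2 CPM in the second set, to 6.35, 12.6, 4.85 and 54.1 CPM, the last set being the highest. Within days 100 to 120, 7 of the 10 were higher in the high-numbered cells, among them CD3E at 0.126 and 10.7 CPM and NKG7 at 0.82 and 11.2 CPM. The 3 others were lower there: CD79B had 0.807 and 0 CPM, MS4A1 0.24 and 0 CPM, and JCHAIN 5.16 and 3.74 CPM. GNLY, a gene of cytotoxic lymphocytes outside the lists that was chosen after its values were seen, had 0.506, 2.71, 0.189 and 102.9 CPM, and 24.98% of its reads at days 100 to 120 were in 1 cell. Overall it stood at 1.19 and 52.0 CPM, a log2 ratio of 4.95, and its reads were found in 20 of 343 thinned cells at days 90 to 100 and 31 of 331 at days 100 to 120. Red cell markers summed to 0.641, 0.567, 2.03 and 27.9 CPM. Most of the last sum was HBB, at 0.057, 0.189, 0.416 and 25.5 CPM, and 83.3% of the red cell marker reads at days 100 to 120 were in 1 cell. Stellate markers had 30.2, 1.64, 19.6 and 31.3 CPM. Within days 100 to 120, 5 of the 10 stellate markers were higher in the high-numbered cells and 5 lower. Most of the last sum was ACTA2, smooth muscle actin, at 0.713, 0.142, 0.643 and 24.6 CPM. In 1 cell lay 55.4% of the ACTA2 reads at days 100 to 120. Neutrophil markers reached 0.976, 2.87, 0.315 and 5.399 CPM. Bile duct markers (26.5, 27.7, 43.3 and 24.9 CPM) and macrophage markers (72.5, 26.9, 42.0 and 26.8 CPM) were lower in the high- than in the low-numbered cells of days 100 to 120, and endothelial markers had 18.2, 9.56, 6.23 and 14.5 CPM. The macrophage and neutrophil lists each had 1 member at 0 in both samples. The part of these other cells in the immediate early and heat shock differences was not tested.

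Per cell, at equal depth, the heat shock genes had a median of 1790 and 1801 CPM at days 90 to 100 and 100 to 120, and an upper quartile of 2060 and 3485. Immediate early genes had a median of 1298 and 2055 and an upper quartile of 1582 and 3709. Above the 90th percentile of days 90 to 100 lay 56.2% of the cells at days 100 to 120 for immediate early genes (exact 95% interval 50.7 to 61.6) and 40.5% for heat shock genes (35.2 to 46.0). Over the 331 thinned cells at days 100 to 120 the sums of both lists had a Spearman rho of 0.73, against 0.11 over the 343 cells at days 90 to 100. In the low-numbered cells of days 100 to 120 rho was 0.02 over 169 cells, and in the high-numbered cells 0.69 over 162. These are descriptions over cells that share a library. The cells of ranges 6 to 9 had median depths of 373746 to 698176 reads and medians of 4556 to 5791 genes, overlapping those of ranges 1 to 5 (400512 to 554364 reads and 4871.5 to 5594 genes).

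Both samples varied along the cell number in other genes as well. Between the high- and the low-numbered cells of days 90 to 100, 193 genes were at least 2-fold higher (2.33%) and 422 lower (5.1%), and between those of days 100 to 120 the counts were 409 (4.94%) and 430 (5.19%). Of these 4 counts the last 3 exceed both counts between the stages. At least 2-fold higher in all 4 pairings of a set of days 100 to 120 with a set of days 90 to 100 were 43 genes (0.519%), and 38 were lower (0.459%). All 10 number ranges of days 100 to 120 lay above all 10 of days 90 to 100 for 84 genes (1.01%), 34 of them at least 2-fold higher (0.411%). They lay below for 11 genes (0.133%), 9 of them at least 2-fold lower (0.109%). The immediate early list had 2 members in the first of these classes, BTG1 and MCL1.

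Genes that were higher in every range included NEIL2, a DNA glycosylase of base excision repair, at 9.78 CPM at days 90 to 100 and 51 CPM at days 100 to 120 (log2 ratio 2.32). It went from 3.27 to 14.7 CPM over the ranges of days 90 to 100 and 30.8 to 70.1 CPM over those of days 100 to 120, and reads were found in 27.1% of thinned cells (exact 95% interval 22.5 to 32.1) at days 90 to 100 and 63.7% (58.3 to 68.9) at days 100 to 120. In the 7 other samples NEIL2 stood between 30.8 and 50.4 CPM, so that the sample at days 90 to 100 was the low one. SLC38A2, a sodium-coupled transporter of small neutral amino acids that is induced by amino acid shortage, had 36 and 158 CPM (2.12), and it went from 13.9 to 64.5 CPM over the ranges of days 90 to 100 and 83.9 to 237 CPM over those of days 100 to 120. FKBP5, a cochaperone of the glucocorticoid receptor and a standard glucocorticoid-responsive gene, stood at 4.28 and 32.3 CPM (2.78), with reads in 24.8% of thinned cells (exact 95% interval 20.3 to 29.7) at days 90 to 100 and 53.5% (47.9 to 58.9) at days 100 to 120. FNIP1, a partner of folliculin in nutrient sensing, had 27.5 and 86.6 CPM (1.64), and NR1D2, a repressor of the circadian clock, 72.7 and 177 CPM (1.28). SOCS2, a feedback inhibitor of growth hormone signalling, had 50.4 and 112 CPM (1.15). ZFAND5 (80.3 and 220.2 CPM), which stimulates the proteasome, and ADNP (24.6 and 57.3 CPM) were named after their values had been seen.

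Lower in every range were AHCYL1, a regulator of the IP3 receptor, at 151 CPM at days 90 to 100 and 58.5 CPM at days 100 to 120 (-1.36), and KLF12, a transcriptional repressor, at 103 and 43.7 CPM (-1.22). Named after their values had been seen were SDC1, a heparan sulfate proteoglycan that takes up remnant lipoproteins, at 407 and 199 CPM (-1.03), and FN1, plasma fibronectin, at 1546 and 996 CPM (-0.63). AHCYL1 ran from 92.5 to 236 CPM over the ranges of days 90 to 100 and 42.1 to 84.5 CPM over those of days 100 to 120, and its low- and high-numbered cells stood at 53.6 and 63.3 CPM at days 100 to 120, below the 149 and 155 CPM of days 90 to 100. ONECUT1, the hepatocyte nuclear factor HNF6, had overlapping ranges but was lower in each pairing of sets, at 197 and 141 CPM at days 90 to 100 and 60.7 and 42.5 CPM at days 100 to 120. Reads of it were found in 94.5% of thinned cells (exact 95% interval 91.5 to 96.6) at days 90 to 100 and 71.6% (66.4 to 76.4) at days 100 to 120. Its level at days 100 to 120 was the lowest of all 9 samples, the others lying between 83.9 and 179 CPM.

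Several of the largest folds belonged to part of a sample's cells. OAT, ornithine aminotransferase, stood at 11.4 CPM at days 90 to 100 and 79.2 CPM at days 100 to 120, with the largest log2 ratio (2.75) of the 15 higher genes named for their fold. Its 4 sets were 12.6 and 8.71 CPM at days 90 to 100 and 12 and 145 CPM at days 100 to 120, so only the high-numbered cells of days 100 to 120 were high. NFIL3, a bZIP repressor under clock and hormone control, had 33.4 and 183 CPM (2.44), with sets at 25.9, 49.8, 94.6 and 270.2 CPM, both sets of days 100 to 120 being above both of days 90 to 100. RNF125, a ubiquitin ligase, had 39.5, 26.4, 31.4 and 179.8 CPM, and HOPX, a homeodomain cofactor, 22.7, 21.4, 20.6 and 116 CPM. MT1B, a metallothionein that binds zinc, was high in the low-numbered cells of days 100 to 120 instead, with 29.7, 1.1, 135 and 32.3 CPM, and metallothionein copies can share reads. Among lower genes GCLC, the catalytic subunit of the enzyme that starts glutathione synthesis, had 342, 57.8, 81.7 and 34.7 CPM. Its overall 254 and 58 CPM (-2.12) thus rested on the low-numbered cells of days 90 to 100. The same held for KLF3 (321, 30.4, 45.9 and 70.1 CPM), FMR1 (208, 40.6, 46.4 and 51.2 CPM) and the splicing factor SRSF2 (1402, 420.4, 416 and 515 CPM).

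A pair of enzymes of the kynurenine branch of tryptophan breakdown had lower levels at days 100 to 120. KMO, which hydroxylates kynurenine, stood at 1068 CPM at days 90 to 100 and 380.4 CPM at days 100 to 120 (-1.49), and AFMID, which forms kynurenine in the step before it and was named for its fold, at 73.6 and 22 CPM (-1.72). In the 4 sets KMO had 1248, 669, 464 and 298 CPM and AFMID 72, 77.2, 30.5 and 13.5 CPM, each set of days 100 to 120 lying below each set of days 90 to 100. Not all members of the branch followed. HAAO had 309, 358, 354 and 420 CPM in the same sets, KYNU 176, 200, 147 and 137 CPM and ACMSD 106, 53.1, 78.6 and 38.7 CPM. These last members were named after their values had been seen. KMO at days 90 to 100 was the highest of all 9 samples, the others lying between 177 and 678 CPM. ABAT, which breaks down GABA and beta-alanine, had 308 and 84 CPM (-1.87), and 9 of its 10 ranges at days 100 to 120 lay below all ranges at days 90 to 100. SDS, serine dehydratase, was higher, at 10.7 and 25.2 CPM (1.20), with reads in 16.9% of thinned cells (exact 95% interval 13.1 to 21.3) at days 90 to 100 and 31.1% (26.2 to 36.4) at days 100 to 120. ALDH6A1 of valine breakdown and BCKDHA of the branched-chain ketoacid dehydrogenase had ratios of -0.76 and -0.61. The amino acid breakdown list holds KMO and SDS but not AFMID and ABAT. Of its 36 measured genes 1 was at least 2-fold higher and 1 lower (3.01% and 3.27% of all genes). A ratio above 0 was found for 14 (53.1% of all genes), and the median was -0.08.

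In the urea cycle ARG1, the arginase that releases urea, stood at 561 CPM at days 90 to 100 and 1046 CPM at days 100 to 120 (0.90) and was above in every range. ASS1, which joins citrulline to aspartate, went the other way with 751 and 472 CPM (-0.67), as did GLS2, the liver glutaminase, with 139.6 and 79 CPM (-0.82). CPS1, the entry enzyme, had 2297 and 1889 CPM (-0.28). None of the 12 members reached 2-fold (0 higher and 0 lower), and the median was -0.18.

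The enzymes of the committed steps of fatty acid synthesis were lower. ACACA, acetyl-CoA carboxylase, stood at 19.1 CPM at days 90 to 100 and 6.49 CPM at days 100 to 120 (-1.49) and FASN, fatty acid synthase, at 22.1 and 8.44 CPM (-1.34). ACACA reads were found in 54.8% of thinned cells (exact 95% interval 49.4 to 60.2) at days 90 to 100 and 24.5% (19.9 to 29.5) at days 100 to 120. ACACA overlaps 6 other annotated genes. THRSP, a lipogenic factor, had 132 and 74.6 CPM (-0.82). The high-numbered cells of days 90 to 100 were already low, with 6.27 CPM of FASN against 29.2 in the low-numbered cells, and the 2 sets of days 100 to 120 had 12 and 4.9 CPM. For THRSP the 4 values were 180.3, 26.3, 125 and 25.3 CPM. Of 19 members 0 were at least 2-fold higher and 2 lower (3.01% and 3.27% of all genes). The list's median of -0.25 ran from -0.27 to 0.16 over the pairings of sets. Over gestation ACACA stood at 34.2, 28, 12.6, 19.1, 6.49 and 5.21 CPM in order of day, and it was 30.4 and 54.0 CPM in lactation.

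Cholesterol synthesis had the higher summed level at days 100 to 120, 5238 against 3737 CPM. IDI1, isopentenyl diphosphate isomerase, stood at 272 CPM at days 90 to 100 and 538 CPM at days 100 to 120 (0.98) and ACAT2, which makes the acetoacetyl-CoA that enters the pathway, at 988 and 1657 CPM (0.75). INSIG1, the sterol-sensing brake on the pathway, had 146 and 242 CPM (0.73). No member of 21 reached 2-fold (0 higher and 0 lower). The median of 0.29 was 0.06 with equal weight per cell and 0.05 in thinned cells. It ran from -0.70 to 0.64 over the pairings of sets and was -0.05 in cells at or under the pooled median of immediate early reads. IDI1 had 246, 328, 315 and 757 CPM in the 4 sets, the high-numbered cells of each sample being the higher. The high-numbered cells of days 100 to 120 are also those with high immediate early reads, and whether they are related was not tested.

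Genes of lipid storage and fatty acid use were higher in part of the cells. HILPDA, an inhibitor of triglyceride lipase, stood at 3.0 CPM at days 90 to 100 and 14.7 CPM at days 100 to 120 and PLIN2, the coat protein of lipid droplets, at 31.2 and 57.6 CPM (0.87). LPIN1, a phosphatidate phosphatase and transcriptional coactivator, had 32.2 and 72.8 CPM (1.16), and the carnitine transporter SLC22A5 had 7.57 and 15.2 CPM (0.96). These levels were mostly those of the low-numbered cells of days 100 to 120, with PLIN2 at 22.1, 51.1, 103 and 13 CPM and SLC22A5 at 6.34, 10.3, 26.7 and 3.81 CPM over the 4 sets. The median cell had 20 CPM of PLIN2 at days 90 to 100 and 0 at days 100 to 120, whereas the upper quartile stood at 54.7 and 73.1 CPM. The enzymes of fatty acid oxidation did not follow: of 26 members 0 were at least 2-fold higher and 0 lower, ACSL1 and ACAA2 both had -0.43, and the median was -0.11. In the list of ketone body synthesis SLC16A1, the transporter that exports ketone bodies, had 28.8 and 60.2 CPM (1.05). Unlike PLIN2, its ratio was largest with the high-numbered cells of days 100 to 120, at 1.83 against the low-numbered cells of days 90 to 100. Low-numbered cells of days 100 to 120 had -0.093 against the high-numbered cells of days 90 to 100. In cells at or under the pooled median of immediate early reads the ratio was 0.22, and above it 1.22.

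In glucose metabolism PDK4, the kinase that shuts pyruvate out of the citric acid cycle, was higher, at 157 CPM at days 90 to 100 and 398 CPM at days 100 to 120 (1.34). Its 4 sets were 130.5 and 216 CPM and 596 and 204 CPM, so that the high value came from the low-numbered cells of days 100 to 120. PC, pyruvate carboxylase, which feeds gluconeogenesis, was lower at 127 and 56.4 CPM (-1.16), and the mitochondrial PCK2 had 197 and 118 CPM (-0.74). PC at days 140 to 150 was 279 CPM, above both. PPP1R3C, which directs a phosphatase to glycogen, had 63.2 and 138 CPM (1.12), a difference found in the high-numbered cells of days 100 to 120 alone (46.3 and 228 CPM). In the gluconeogenesis list 1 of 14 members was at least 2-fold higher and 1 lower (3.01% and 3.27% of all genes). The list's median was -0.28. Propionate use, the main entry of carbon into ruminant gluconeogenesis, had 0 of 9 members past 2-fold. PCCA and PCCB, the subunits of propionyl-CoA carboxylase, had 245 and 185 CPM (-0.40) and 113 and 91.5 CPM (-0.30), and MMUT, methylmalonyl-CoA mutase, had 431 and 559 CPM (0.37).

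Most genes of the respiratory chain and the cytosolic ribosome were higher by small amounts. Of 29 respiratory chain genes 24 had a ratio above 0 (53.1% of all genes do), 0 reached 2-fold, and the median was 0.21. UQCRH, the hinge protein of complex III, had 693 and 1160.2 CPM (0.74) with every range above, and NDUFA4 833 and 1303 CPM (0.64). Of 48 ribosomal protein genes 43 had a ratio above 0, 8 were above in every range, 0 reached 2-fold, and the median was 0.35, or 0.25 to 0.50 over the pairings of sets. RPS28 stood at 1532 CPM at days 90 to 100 and 2789 CPM at days 100 to 120 (0.86). The ratio differed with gene length over all genes. In 5 groups of genes of equal size, from the shortest to the longest, the median log2 ratio was 0.12, 0.07, 0.04, 0.00 and -0.10, with 88, 49, 44, 37 and 31 genes at least 2-fold higher and 29, 32, 59, 60 and 91 lower. Relative to genes of like length, an alternative chosen after the data had been seen, the median was 0.06 for the respiratory chain and 0.08 for the ribosomal proteins.

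**Figure D3:**
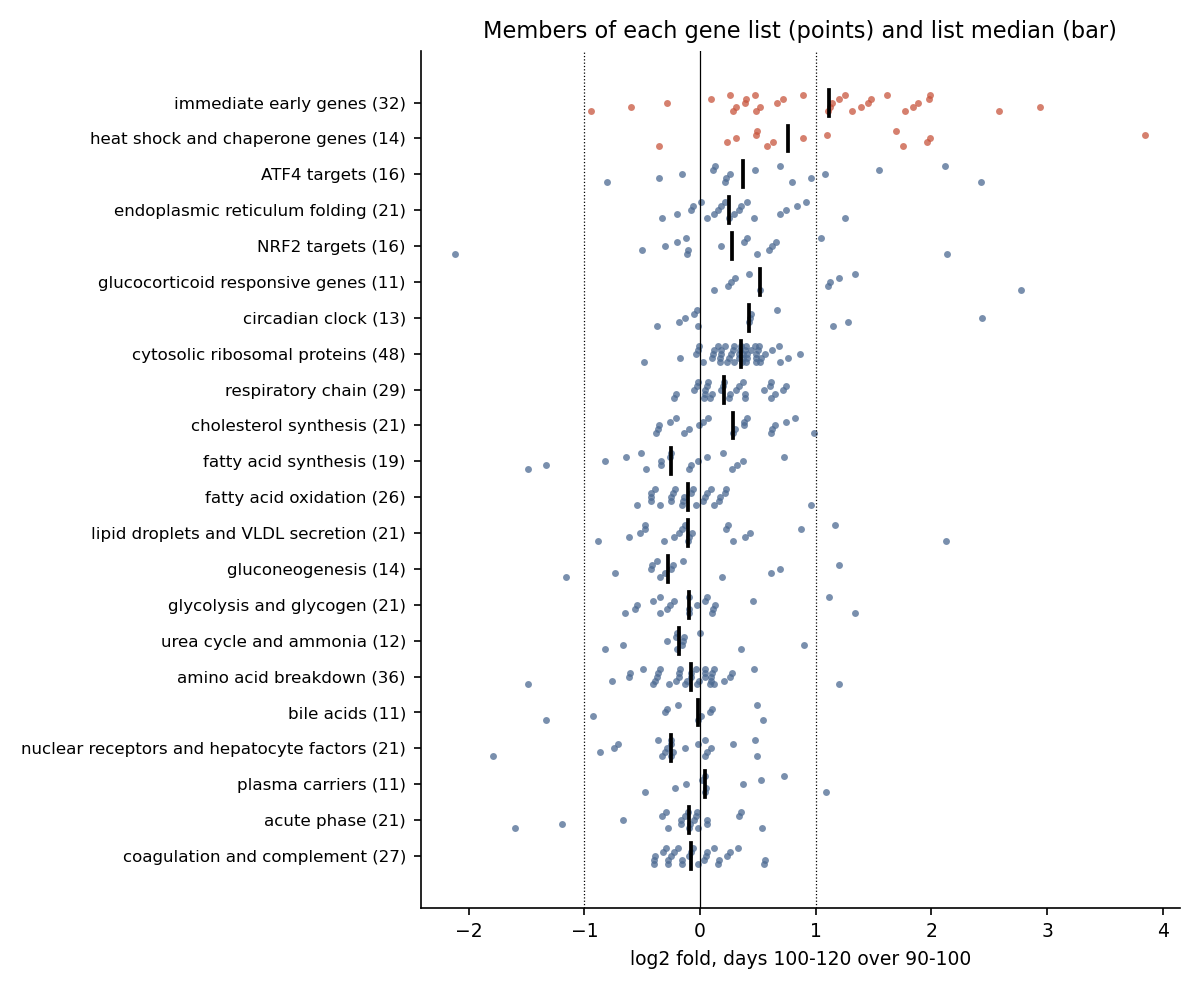
Each point is a measured gene of a list (number of genes in brackets) at its log2 fold of days 100 to 120 over days 90 to 100; bars mark list medians and dotted lines 2-fold. The immediate early and heat shock lists have medians of 1.12 and 0.76, and the metabolic lists shown here have medians between -0.28 and 0.29.

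Bile acid and detoxification genes held single members with lower levels. NR0B2, the repressor SHP that limits bile acid synthesis, stood at 27.3 CPM at days 90 to 100 and 10.6 CPM at days 100 to 120 (-1.33), and BAAT, which conjugates bile acids to amino acids, at 310.3 and 163 CPM (-0.93). NR1H4, the bile acid receptor FXR, had 44 and 62 CPM (0.49), in the opposite direction to its target NR0B2. BHMT2, a methyltransferase of methionine synthesis, had 41.6 and 18.2 CPM (-1.17), but its 4 sets were 25.3, 77.6, 23.1 and 13.3 CPM, the low-numbered cells of both stages being close to each other. CDO1, cysteine dioxygenase, was higher at 427 and 678 CPM (0.67), as was ALDH1A1, a retinal dehydrogenase, at 2776 and 4669 CPM (0.75). AQP7, a glycerol channel, was lower at 50.6 and 20.2 CPM (-1.31), and GPX3, a secreted glutathione peroxidase, at 172 and 45.7 CPM (-1.90). GPX3 differed far more within the samples, with 245 and 11.1 CPM at days 90 to 100 and 86.5 and 5.42 CPM at days 100 to 120 in low- and high-numbered cells.

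The stress lists other than heat shock had 7 of 66 measured members at least 2-fold higher and 1 lower (3.01% and 3.27% of all genes), at a median of 0.22. Of 16 ATF4 targets, the genes of the integrated stress response, 4 were at least 2-fold higher and 0 lower. Besides SLC38A2 these were FGF21, a hormone of fasting and stress, at 8.35 and 47.3 CPM (2.43), the stress protein NUPR1 at 179.9 and 528 CPM (1.55) and the pseudokinase TRIB3 at 7.63 and 16.7 CPM (1.08). FGF21 was high in the low-numbered cells of days 100 to 120 (86.9 CPM, against 8.24 in the high-numbered cells and 4.03 and 17.9 in the 2 sets of days 90 to 100). NUPR1 was near absent from the high-numbered cells of days 90 to 100, at 6.43 CPM, against 258, 302 and 750.0 CPM in the 3 other sets. Of 21 genes of protein folding in the endoplasmic reticulum 1 reached 2-fold, HERPUD1 of ER-associated degradation, at 156 and 371 CPM (1.25). HSPA5, the main ER chaperone BiP, had 418 and 788 CPM (0.91), with 404 and 1166 CPM in the low- and high-numbered cells of days 100 to 120. Of 16 NRF2 targets 2 were at least 2-fold higher and GCLC lower. The higher members included TXN, thioredoxin, at 217 and 448 CPM (1.04), which was higher in both sets of days 100 to 120 than in both of days 90 to 100 (235, 179, 453 and 444 CPM).

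Among hormone-linked lists the glucocorticoid-responsive genes had 5 of 11 members at least 2-fold higher and 0 lower (3.01% and 3.27% of all genes). A ratio above 0 was found for 11 of 11 (53.1% of all genes), and the median was 0.52. After FKBP5, the members past 2-fold included PDK4, SDS, DUSP1 and SGK1, a kinase of ion transport. SGK1 had 29.9 and 64.9 CPM (1.11), high in the high-numbered cells of days 100 to 120 alone (40.4, 6.63, 12.7 and 116 CPM). The list shares DUSP1 and SGK1 with the immediate early genes, and PDK4 and SDS with metabolic lists. Its median ran from 0.09 to 0.67 over the pairings of sets, and the list's summed level across gestation was 1099, 1007, 1724, 1400, 1972 and 1918 CPM in order of day. In the growth hormone axis SOCS2 was higher, whereas IGF2R, which clears IGF2, had 81.6 and 45.1 CPM (-0.85). IGFBP1, a binding protein of IGF, had 351 and 592 CPM (0.75). Of 13 clock genes 3 were at least 2-fold higher and 0 lower. These were NFIL3, NR1D2 and CRY1, a repressor of the clock, at 5.69 and 13.3 CPM (1.15). CRY1 and its activator BMAL1 were both high in the high-numbered cells of days 100 to 120, CRY1 with 3.11 and 23.3 CPM in the 2 sets and BMAL1 with 4.1 and 25.6 CPM. The hour at which the livers were taken is not in the labels.

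Of 21 nuclear receptors and hepatocyte transcription factors 7 had a ratio above 0 (53.1% of all genes do), and the median was -0.25. ONECUT1 was the member past 2-fold. NR5A2, the receptor LRH-1, had 46.1 and 27.3 CPM (-0.74), PROX1 342 and 209 CPM (-0.71) and HNF4A 118 and 101 CPM (-0.23).

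Secreted proteins differed little as a group, at a median of -0.06. Of 59 measured members 1 was at least 2-fold higher and 2 lower (3.01% and 3.27% of all genes). The carrier and inhibitor FETUB stood at 792 CPM at days 90 to 100 and 1689 CPM at days 100 to 120 (1.09), with 831 and 2533 CPM in the low- and high-numbered cells of days 100 to 120. Its relative AHSG, fetuin A, had 9824 and 16290.1 CPM (0.73) and the thyroxine carrier TTR 24373 and 35182 CPM (0.53). The acute phase protein ORM1 had 325 and 141 CPM (-1.20), and the 4 other gestation samples ran from 50.6 to 7829 CPM. C1R and MBL2 of the complement system were above in every range, at 2631 and 3866 CPM (0.56) and 752 and 1111 CPM (0.56). CXCL12, a chemokine, was lower at 128 and 50.9 CPM (-1.32), and its level at days 90 to 100 was the highest of the 9 samples. Of 13 interferon response genes 1 was at least 2-fold higher and 0 lower. ISG15 had 17.6, 2.91, 30.9 and 30.2 CPM and IFI6 286, 22.6, 322 and 403 CPM over the 4 sets, the high-numbered cells of days 90 to 100 being the low ones for both.

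Cells were also split at the pooled median of their immediate early reads, 1528.67 CPM. At or under it lay 278 cells at days 90 to 100 and 97 at days 100 to 120, and above it 118 and 256. Between cells at or under the median, heat shock genes had a median log2 ratio of -0.14, and between cells above it 0.90. The ATF4 targets had 0.38 and 0.33, the glucocorticoid-responsive genes 0.57 and 0.29 and the ribosomal proteins 0.27 and 0.37. Among single genes FKBP5 had 2.97 and 2.49, NEIL2 2.13 and 2.46, SLC38A2 1.30 and 1.97, KMO -0.89 and -1.65, ONECUT1 -1.68 and -1.79 and ACACA -1.51 and -1.85. OAT had -0.63 and 2.49, HSPA1A -0.36 and 1.84, CRY1 -1.22 and 1.83 and PPP1R3C -0.17 and 1.17, so that these 4 were not higher in cells with few immediate early reads. Immediate early genes summed to 1774 and 4003 CPM in the low- and high-numbered cells of days 100 to 120. The split thus goes in part with the cell number, and the 2 were not separated here. They are not the same split, since 97 cells of days 100 to 120 lay at or under the median and 177 were low-numbered. Cells above the median were not matched in level, since the upper quartile over all thinned cells was 1582 CPM at days 90 to 100 and 3709 CPM at days 100 to 120.

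**Figure D4:**
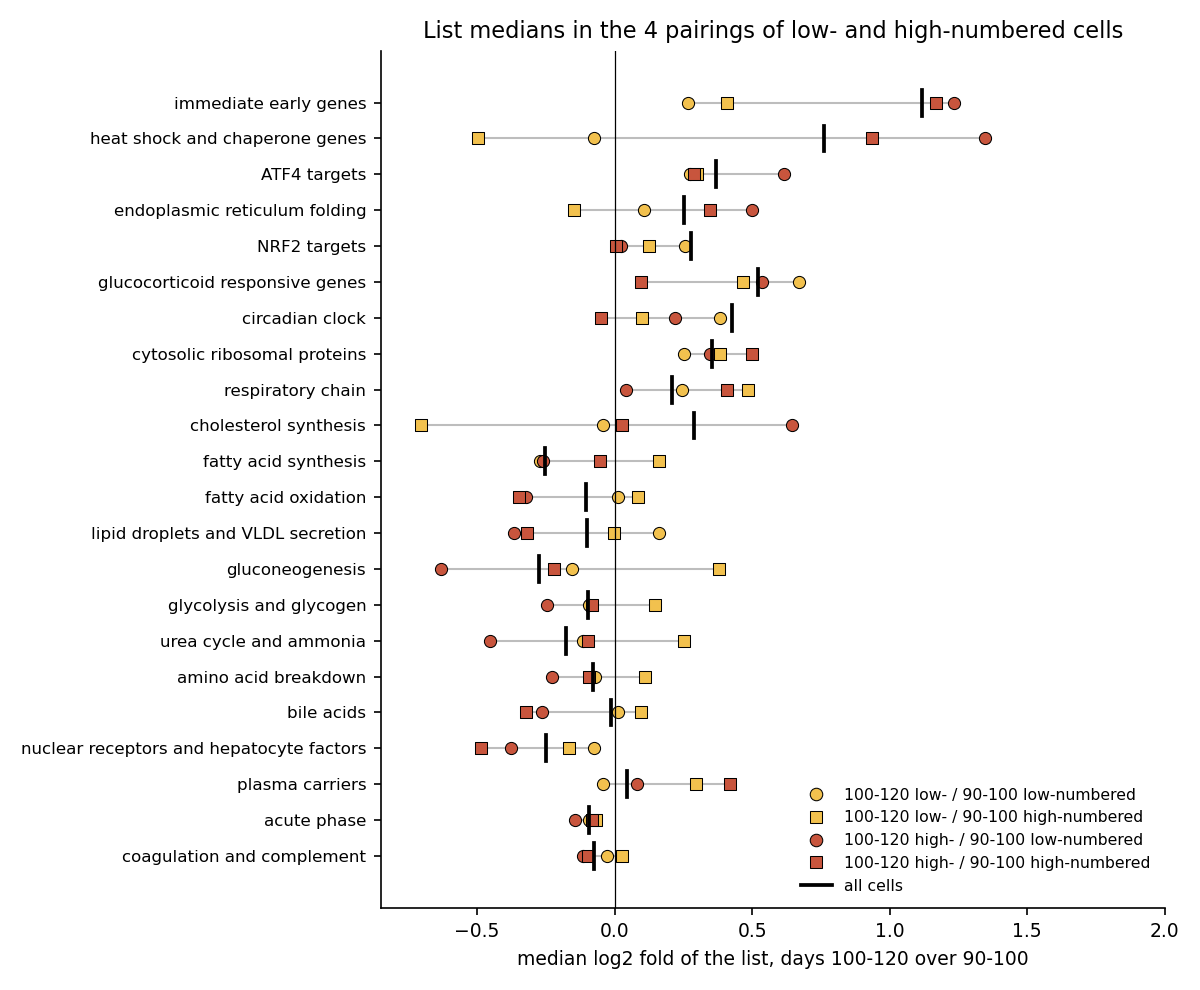
Median log2 fold of each gene list for each set of cells at days 100 to 120 (yellow, low-numbered; red, high-numbered) over each set at days 90 to 100 (circle, low-numbered; square, high-numbered); bars are all cells. Immediate early genes run from 0.27 to 1.23, heat shock genes from -0.50 to 1.35 and cholesterol synthesis from -0.70 to 0.64, whereas ribosomal proteins stay between 0.25 and 0.50.

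Over the 6 gestation samples, the sample at days 100 to 120 was more often the extreme one than that at days 90 to 100. Of the 249 genes at least 2-fold higher, days 100 to 120 lay above all 4 other gestation samples for 178, and days 90 to 100 lay below all 4 for 86 (25.1% and 17.6% of all genes tested do). Of the 271 lower genes, days 100 to 120 lay below all 4 for 165 and days 90 to 100 above all 4 for 144 (19.6% and 17.8%). These genes were picked for their fold between this pair, which by itself makes an extreme place more likely than among all genes. The excess over all genes is therefore no separate result. NFIL3 was between 33.3 and 58.9 CPM in the 5 other gestation samples and 183 CPM at days 100 to 120, and FNIP1 between 26.2 and 29.9 CPM and 86.6 CPM. FKBP5, in contrast, was 43.4 CPM at days 140 to 150, and PLIN2 3.8, 4.72, 9.04, 31.2, 57.6 and 103 CPM in order of day. Their levels at days 100 to 120 thus lay between those of the stage before and after.

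**Figure D5:**
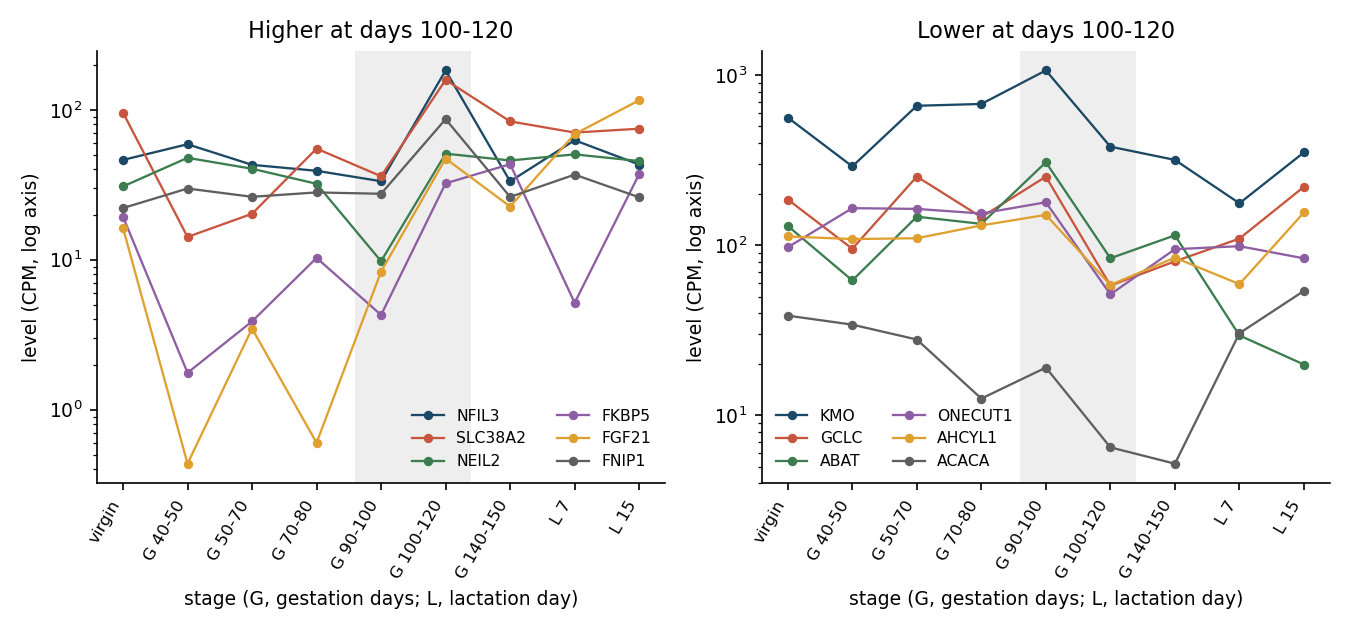
Level in CPM on a log axis of 6 genes higher (left) and 6 lower (right) at days 100 to 120 in the 9 samples, 1 library each; the shaded band holds the pair compared. NFIL3 peaks at 183 CPM at days 100 to 120, and KMO at 1068 CPM at days 90 to 100.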

How the data were processed

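Single hepatocytes of 9 stages were sequenced with Smart-seq3xpress, and the authors deposited 1 table of read counts per gene and cell. The submitters' processing notes name featureCounts 2.0.1 for counting, HISAT2 2.1.0 as the aligner and Trimmomatic 0.39. A genome build, and whether molecular identifiers were collapsed, are not given in the sources used here. Strand use in counting is not stated either, so overlapping genes cannot be told apart. The 24 rows without a gene name (0.474% of reads) were dropped, which left 28837 genes, 12262 of them with LOC symbols. All 28837 symbols matched the RefSeq table of assembly ARS-UI_Ramb_v3.0.

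Reads were summed per stage and given as CPM with TMM factors over the 9 samples (edgeR 4.0.16 in R 4.3.3). Genes with a mean of at least 5 CPM were kept, and log2 ratios used 0.5 CPM added to both sides. A gene counts as higher or lower at 2-fold, with no test. Shares of cells with a read and sums per cell came from cells thinned to 184944 reads, the 10% quantile over both samples. All other steps ran in Python 3.11.15 (pandas 2.3.3, numpy 2.4.6, matplotlib 3.10.9, SciPy 1.17.1). Of these, only the folds, the Poisson intervals of ratios and the thinning were checked on simulated counts, which held counting error alone. No doublets were called, since cells were picked by hand. Sums hold every cell.

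The genes named were, in each direction, the 15 of largest fold with a symbol other than LOC, at least 50 CPM in the higher sample and at most 10% of its reads in 1 cell. To these came up to 4 members per gene list with at least 10 CPM and any such immediate early or heat shock member. Genes named by ranges or sets of the cell number, or as LOC genes, were chosen after their values had been seen, as were members of lists beyond the 4. The groups of cells and the lists were chosen with earlier results of these data known. Alternatives covered scaling, filter, added CPM, fold, weighting of cells, depth, gene length, immediate early reads and cell number.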

Additional observations from a re-analysis of the deposited data

How the results depend on the processing

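Scaling choices moved the median log2 ratio of all genes by under 0.1. Of the 74 genes named at 2-fold or more, all 74 kept their direction under library size alone, median-of-ratios factors, equal weight per cell, thinned cells, omission of the 5% deepest cells and omission of the 20 most abundant genes. All 72 of 72 with a value kept it relative to genes of like length, and 53 of 74 in the median over cells. Of the 57 outside the immediate early list, 48 kept it in cells at or under the pooled median of immediate early reads and 57 in cells above it. In the 4 pairings of low- and high-numbered cells 55 (low at days 100 to 120 against low at days 90 to 100), 73 (high against low), 54 (low against high) and 68 (high against high) of 74 kept it, and 31 did so under every alternative. Fewer stayed at 2-fold: 73, 74, 62, 65, 65 and 73 of 74 from library size alone to omission of abundant genes, in the order given. Relative to genes of like length 69 of 72 stayed, and 40 of 74 in the median over cells. In cells at or under the pooled median 32 of 57 stayed at 2-fold, and 50 above it. In the pairings 35, 62, 33 and 57 of 74 did, in the same order. The pairings, the like-length setting and the cells above the pooled median were chosen after the data had been seen. No comparison of plates, animals or batches was run, because neither column names nor the cell sheet name any. No paired analysis was possible because each stage is 1 sample. Depth was not limiting for sums, but genes of under 5 CPM on average were not counted.

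The counts of 249 genes higher and 271 lower by 2-fold were 693 and 795 with no filter on low levels, 124 and 102 with a minimum mean of 20 CPM, 151 and 121 with 5 CPM added, and 78 and 63 at 3-fold. Lower genes numbered 407 in cells with few immediate early reads and 441 in cells with many. With fewer cells a side, the pairings (set of days 100 to 120 against set of days 90 to 100) gave 310 and 440.0 (low against low), 509 and 575 (high against low), 377 and 307 (low against high), and 504 and 435 (high against high).

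The median of immediate early genes, 1.12 as reported, was 1.07 (scaled by library size alone), 0.95 (equal weight per cell), 0.97 (thinned cells), 0.93 (without the 5% deepest cells), 1.07 (without the 20 most abundant genes in the total), 0.13 (median over cells), 1.05 (relative to genes of like length) and 0.48 (no filter). In the pairings it was 0.27 (low against low), 1.23 (high against low), 0.41 (low against high) and 1.17 (high against high). The median of fatty acid synthesis, -0.25 as reported, was -0.30 (scaled by library size alone), -0.12 (equal weight per cell), -0.12 (thinned cells), -0.17 (without the 5% deepest cells), -0.30 (without the 20 most abundant genes in the total) and -0.40 (median over cells). In the pairings it was 0.16 (low against high) and -0.054 (high against high). The median of cholesterol synthesis, 0.29 as reported, was 0.24 (scaled by library size alone), 0.062 (equal weight per cell), 0.048 (thinned cells), 0.047 (without the 5% deepest cells), -0.052 (cells with few immediate early reads), 0.21 (cells with many), 0.24 (without the 20 most abundant genes in the total), -0.38 (median over cells) and 0.24 (relative to genes of like length). In the pairings it was -0.043 (low against low), 0.64 (high against low), -0.70 (low against high) and 0.027 (high against high).

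These named genes had a log2 ratio of the other sign, the cause of which was not tested. In cells with few immediate early reads these were CRY1 -1.22, DNAJB1 -0.24, DNAJB4 -0.92, GNLY -0.56, HSPA1A -0.36, HSPA6 -0.045, HSPH1 -0.12, OAT -0.63 and PPP1R3C -0.17. In the median over cells these were DNAJB4 -0.83, DUSP1 -1.25 and LPIN1 -0.53. In low- against low-numbered cells these were ACTA2 -0.085, CCN1 -0.023, CRY1 -0.86, DNAJB1 -0.37, DNAJB4 -0.32, FETUB -0.017, GADD45B -0.65, GNLY -0.55, HOPX -0.13, HSPA1A -0.055, HSPA6 -0.50, JUNB -1.81, JUND -0.29, OAT -0.060, ORM1 0.29, PPP1R3C -0.23, RNF125 -0.33, SGK1 -1.63 and ZFP36 -0.26. In low- against high-numbered cells these were BAG3 -0.49, CRY1 -0.56, DNAJB1 -0.75, DNAJB4 -0.78, FASN 0.89, FMR1 0.19, GCLC 0.50, GNLY -2.22, GPX3 2.91, HOPX -0.054, HSPA1A -1.06, HSPA6 -1.44, HSPH1 -0.40, JUNB -1.39, KLF3 0.59, MARCO 1.72, NR0B2 0.078, PPP1R3C -0.83, RHOB -0.14 and SLC16A1 -0.093. In high- against low-numbered cells this was DUSP1 -0.051. In high- against high-numbered cells these were FGF21 -1.07, FMR1 0.33, KLF3 1.19, MARCO 1.07, PDK4 -0.081 and SRSF2 0.29.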

Other observations

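Among genes without an assigned symbol, chosen after their values were seen, 8 of at least 100 CPM differed by at least 4-fold, 7 of them higher and 1 lower at days 100 to 120. The abundant LOC114117619 stood at 9823 CPM at days 90 to 100 and 1434 CPM at days 100 to 120 (log2 ratio -2.78). Its low- and high-numbered cells had 6160.3 and 17916 CPM at days 90 to 100, and 1091 and 1771 CPM at days 100 to 120. The 7 other samples ran from 409 to 13104 CPM, so this gene varied widely over the whole series.

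The genes LOC101117184, LOC101117691 and LOC101117955 lie next to one another in the annotation, with 0 or 1 gene between neighbours, and were all higher. LOC101117184 had 191 and 1543 CPM, LOC101117691 278 and 1598 CPM and LOC101117955 65.7 and 1049 CPM. In the same order of the 4 sets of cells LOC101117184 had 269, 19.7, 2738 and 366 CPM and LOC101117955 92.8, 5.81, 1865 and 245 CPM. The low-numbered cells were the higher ones in both samples. Reads shared between neighbouring copies were not told apart, so their separate levels are uncertain. LOC121819493, in contrast, had 38.3, 62.7, 188 and 193 CPM, and its 10 ranges of the cell number at days 100 to 120 went from 99.9 to 247 CPM, all above the highest of days 90 to 100 (83.8 CPM).

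Genes without an assigned symbol make up 11.4% of the genes tested, 26 of the 43 that were 2-fold higher in all 4 pairings of sets and 19 of the 38 that were lower. Of the genes with a symbol in that class ARG2, the mitochondrial arginase, stood at 5.59 and 44.8 CPM and PSMB8, a subunit of the immunoproteasome, at 9.74 and 26.3 CPM. REEP5, which shapes the endoplasmic reticulum, was lower at 40.2 and 10.6 CPM, and PEG3, an imprinted zinc finger gene, at 4.19 and 0.30 CPM. STMN1, TOP2A and UBE2C, genes of dividing cells, are in the class as well. They stood at 0.805 and 35.6 CPM, 0.147 and 6.36 CPM, and 0.0932 and 7.64 CPM, and 1 cell held 51.5% of the STMN1 reads and 79.0% of the TOP2A reads at days 100 to 120.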
